A study of Mus musculus with 3 samples.

Results

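Peaks of STAT5A, a transcription factor of the STAT family, were examined at the loci of 4 feedback inhibitor genes, Cish, Socs1, Socs2 and Socs3, in memory CD8 T cells of the mouse. The members were all deposited peaks whose centre lay in 1 of 4 windows of the mouse build mm9, set around these genes with earlier results of these lists known. The windows ran from 107100000 to 107300000 on chromosome 9 (Cish), 10680000 to 10890000 on chromosome 16 (Socs1), 94770000 to 94980000 on chromosome 10 (Socs2) and 117730000 to 117930000 on chromosome 11 (Socs3). They held 21 of the 33863 deposited peaks, 8 of 14627 in library 1 and 13 of 19236 in library 2. A pair of overlapping peaks counted once as a site, which left 16 sites, 5 of them in both libraries.

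The series used chromatin immunoprecipitation sequencing (ChIP-seq), in which DNA bound by a protein is pulled down with an antibody and read. Its 3 libraries were 2 immunoprecipitations with an anti-Stat5a antibody, called library 1 and library 2 here, and 1 input without antibody, whose peaks were not analysed here. Every library came from the same kind of cell, labelled purified memory TCRP1A eTC-STAT5CA of strain C57BL/6. These are CD8 T cells whose receptor recognises the antigen P1A, and STAT5CA is an active form of STAT5. The cells were stimulated with P1A, received STAT5CA after 24 h, were cultured for another 48 h, and were taken from the spleen and lymph nodes of congenic hosts 70 days after transfer, although the tissue label reads blood. All cells carried STAT5CA, so no group shows the sites of cells without it. The promoter that drove STAT5CA is not given in the sources used here, nor whether the antibody told it from the cells' own STAT5A. The labels call library 2 a replicate without saying whether it came from other animals, so the spread between the libraries may be technical. Peak lists give no read totals, and the depth behind each peak is unknown.

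Cytokines such as IL-2, IL-7 and IL-15 act on T cells through receptors that carry JAK kinases, and these kinases phosphorylate STAT5, which then enters the nucleus and binds DNA. CIS, the product of Cish, and the SOCS proteins are made in response to this signal and damp it, which makes the loop a textbook case of negative feedback. Each has an SH2 domain, which binds phosphorylated tyrosines, and a SOCS box, which recruits a ubiquitin ligase. SOCS1 and SOCS3 also carry a short region that inhibits the JAK kinase itself. STAT5 dimers favour the palindrome TTCNNNGAA.

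Sequence upstream of the genes is shown because it is where a STAT5 palindrome can be read directly. Peaks are on mm9 and these sequences on GRCm38.p6, so positions in the sequences and in the windows cannot be set against each other. RefSeq promoters of 300 bases, from 250 before to 50 after the gene start, were matched for Cish, Socs1 and Socs3. Each run below gives the 250 bases before the gene start, 5′ to 3′ on the gene's strand, and that of Cish goes on for 20 bases to the end of its second palindrome. Capitals mark TTCNNNGAA. The runs lie at chr9:107296409-107296678 on the plus strand, chr16:10785537-10785786 on the minus strand and chr11:117969367-117969616 on the minus strand.
Cish: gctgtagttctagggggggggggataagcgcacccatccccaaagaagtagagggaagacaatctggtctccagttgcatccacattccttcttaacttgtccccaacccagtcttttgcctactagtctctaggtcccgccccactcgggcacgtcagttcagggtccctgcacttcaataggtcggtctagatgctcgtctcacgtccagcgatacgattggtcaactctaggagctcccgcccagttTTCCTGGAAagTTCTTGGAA
Socs1: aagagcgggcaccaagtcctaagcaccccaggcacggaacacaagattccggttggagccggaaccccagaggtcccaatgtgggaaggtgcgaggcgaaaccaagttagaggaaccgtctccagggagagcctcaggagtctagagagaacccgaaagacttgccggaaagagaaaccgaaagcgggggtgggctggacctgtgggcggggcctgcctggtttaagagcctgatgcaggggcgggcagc
Socs3: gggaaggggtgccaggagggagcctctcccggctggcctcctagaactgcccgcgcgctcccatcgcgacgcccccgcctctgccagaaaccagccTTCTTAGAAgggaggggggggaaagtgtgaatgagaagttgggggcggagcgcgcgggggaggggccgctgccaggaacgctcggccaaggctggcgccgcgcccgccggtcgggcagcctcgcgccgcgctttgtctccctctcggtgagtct

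Cish held 2 palindromes in this window, and they stood next to each other. TTCCTGGAA began at the first transcribed base and TTCTTGGAA at base 12, with 2 bases between them. Socs3 held 1, TTCTTAGAA, from base -154 to base -146 relative to the gene start. Socs1 held none in these letters. Over the 32851 promoters of the table, 8.30% held TTCNNNGAA and 0.457% held 2 or more. The stricter TTCCNGGAA was present in Cish alone of the 3 promoters, against 1.15% of all, and the form with TTC and GAA 4 bases apart in none of the 3, against 6.95%. All 3 motifs are palindromes, so a search of 1 strand covers both, and every TTCCNGGAA is also a TTCNNNGAA.

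Other genes of the pathway gave a comparison for these promoters. Of 17 listed genes, 11 had a promoter in the table, with 14 promoters in all: Socs4 of the SOCS family, Il2ra, Il2rg, Jak1, Jak3, Stat5a and Stat5b of the receptor and kinase chain, the inhibitors Pias1 and Ptpn6, and the STAT5 targets Bcl2 and Pim1. The palindrome TTCNNNGAA was in 0 of these 14 promoters, and so were the other forms searched. No match says only that the letters were not in this window, and a match is no evidence of binding. Socs2, Socs5, Socs6, Socs7, Il2rb, Ptpn2 and Osm were not matched.

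STAT5A peaks were unevenly spread over the 4 loci. The Socs2 window and the Socs3 window each held 7 sites, the Cish window held 2, and the Socs1 window held 0. Sites found in both libraries were 3 in the Socs2 window, 2 in the Socs3 window and 0 in the windows of Cish and Socs1. Across all non-overlapping windows of the autosomes, 44.0% of the 12001 windows of 200 kb (the width of Cish and Socs3) and 45.2% of the 11431 windows of 210 kb (the width of Socs1 and Socs2) held at least 1 site in both libraries. Such a site was held by 2 of 4 loci, which is close to that background by this measure alone. Counts gave another picture. The mean number of sites per autosomal window was 2.1 at 200 kb and 2.21 at 210 kb. That of sites in both libraries was 0.645 and 0.677. The windows of Socs2 and Socs3 were above these means, and that of Socs1 was below them. The Cish window was near the mean for sites and below it for sites in both libraries. On the chromosome of each locus the mean number of sites was 2.49 (Cish), 1.98 (Socs1), 2.39 (Socs2) and 2.72 (Socs3). The background windows were placed without regard to genes, unlike the windows of the 4 loci. A window of this size covers other genes too. Because no mm9 annotation was used, no peak is assigned to a gene, an exon, an intron or a promoter.

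**Figure D1:**
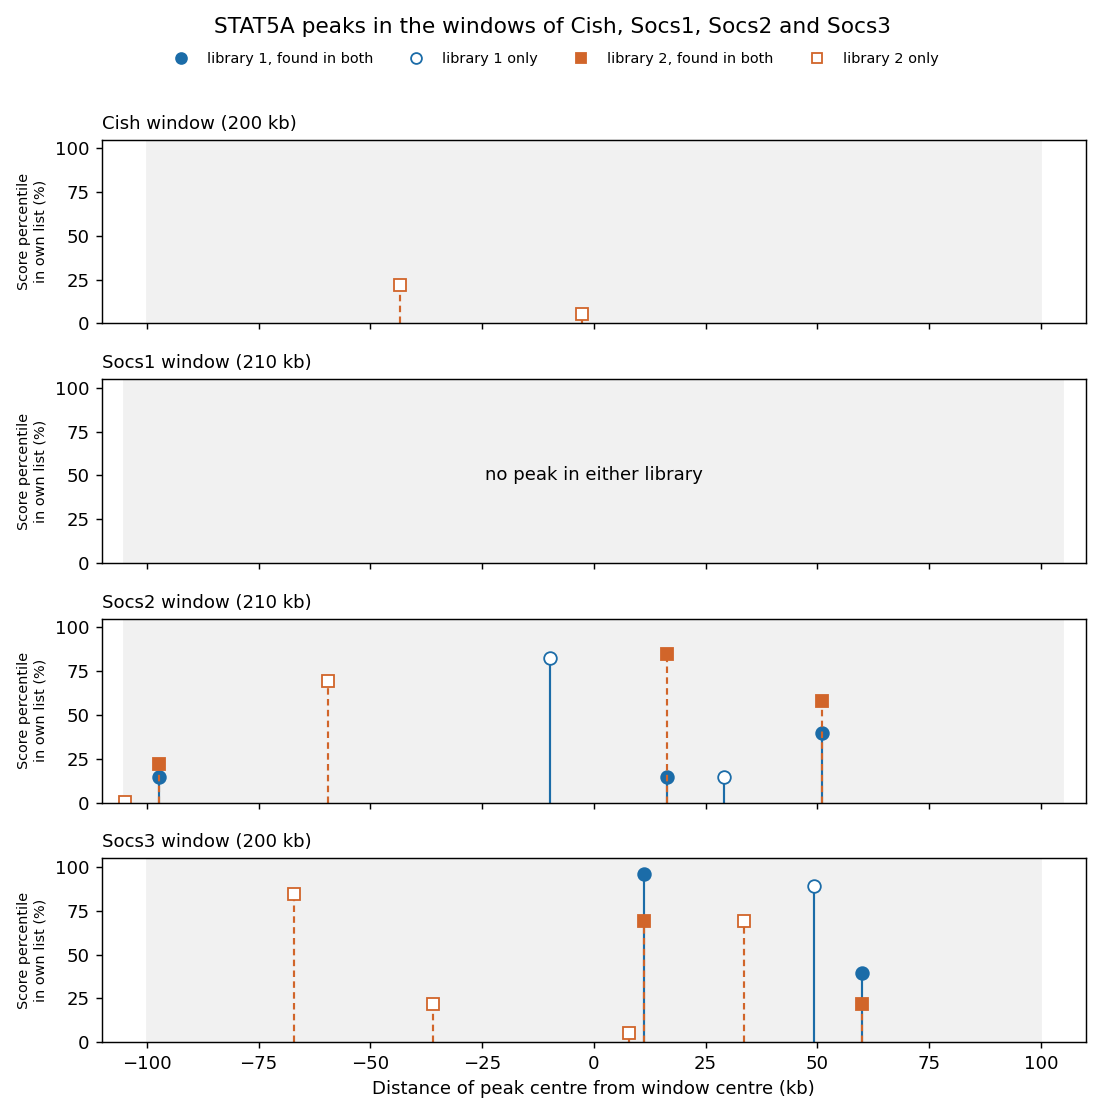
STAT5A peaks in the 4 windows (grey), by distance of the peak centre from the window centre in kb (x axis) and by the percentile of the peak's score within its own list (y axis). Circles stand for library 1 and squares for library 2, filled where the site was found in both libraries and open where it was found in 1; the windows of Socs2 and Socs3 hold 7 sites each, that of Cish 2 and that of Socs1 0.

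The Socs2 window held 5 peaks in each library. SOCS2 is best known as a brake on growth hormone signalling. In library 1, 2.00% of autosomal windows of this width held as many peaks, in library 2, 7.59% did, and 4.79% held as many as 3 sites in both libraries. The library 2 count includes a peak only 0.25 kb inside the window edge. The median autosomal window of 210 kb held 1 peak in each library and 0 sites in both. Counts per window are descriptions of these lists, since the windows were not drawn at random, and no test was made.

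The first site of the Socs2 window in both libraries lay near its lower edge. Library 1 had a peak at 94777584 to 94777788 with a score of 23, and library 2 at 94777611 to 94777799 with a score of 10. The score is the authors' whole number with no stated scale, so it is read here only by its rank: a percentile of 50 would be the middle of that library's list, with ties at their mean rank. These scores were at percentile 14.4 in library 1 and 21.9 in library 2. Both were low in their lists.

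The second Socs2 site in both libraries ran from 94891334 to 94891538 in library 1 and from 94891333 to 94891521 in library 2. Its score was 16 in library 2, at percentile 84.6, the highest of that library in the window, and 23 in library 1, at percentile 14.4. The libraries thus ranked it far apart. The third site, at 94925892 to 94926096 in library 1 and 94925902 to 94926090 in library 2, had scores of 27 and 12, at percentiles 39.6 and 57.9, near the middle of both lists.

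The highest library 1 score of the Socs2 window belonged to a peak that library 2 lacked. That peak, at 94865225 to 94865429, had a score of 39 (percentile 82.5), and its nearest library 2 peak was 26.1 kb away. Library 1 alone also had a peak at 94904041 to 94904245 with a score of 23. Library 2 alone had a peak at 94815361 to 94815549 with a score of 13 (percentile 69.5), 37.8 kb from the nearest peak of library 1. A further library 2 peak, at 94770156 to 94770344, carried the lowest score of its list, 8, which 118 of the 19236 peaks shared. Its centre lay 0.25 kb inside the window, so it is a member by the placing of that edge.

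Gene order around Socs2 places other genes in or near such a window. In the GRCm38.p6 annotation its nearest protein-coding neighbours were Cep83, Plxnc1 and Cradd on one side and Mrpl42, Ube2n and Nudt4 on the other. Just beyond the window, peaks became sparse on the lower side, where the next one was 336 kb away in library 1 and 329 kb in library 2. On the upper side the next peaks were 78.4 kb and 32.7 kb beyond the edge. The 4 windows of the same width around it, 2 on each side, held 0 to 4 peaks in each library, against 5 at Socs2. In library 2 this contrast rests on the peak 0.25 kb inside the edge. Without that peak, the library 2 count would only equal the highest of these surrounding windows.

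The Socs3 window held 3 peaks in library 1 and 6 in library 2. SOCS3 is known for restraining IL-6 signalling through the receptor chain gp130. As many peaks were found in 13.6% of autosomal windows of 200 kb in library 1 and in 3.58% in library 2, and 14.7% held as many as 2 sites in both libraries. Chromosome 11 was dense in peaks as a whole, with 7.28 per Mb in library 1 and 10.3 per Mb in library 2, and its median window of 200 kb held 1 and 2 peaks. The 4 flanking windows held 1 to 2 peaks in library 1 and 3 to 7 in library 2. The Socs3 count of library 2 was therefore within the range of its own surroundings, and that of library 1 was above it by 1 peak.

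The highest-ranked library 1 peak of all 4 loci lay in the Socs3 window, at a site found in both libraries. Library 1 had a peak at 117841245 to 117841449 with a score of 51, at percentile 96.2, and 416 of its 14627 peaks scored higher. Library 2 had the matching peak at 117841236 to 117841424 with a score of 13, at percentile 69.5. In that library a Socs2 peak and another Socs3 peak ranked higher, both at percentile 84.6. Of the 5 sites in both libraries, the site scored 51 and 13 was the only one above the list median in both. The share of all pairs of the lists that are above it in both was not computed. A peak of library 2 alone, at 117837822 to 117838010 with a score of 9 (percentile 5.4), stood 3.43 kb from this Socs3 site. That was the shortest distance between neighbouring sites in the 4 windows.

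The other Socs3 site in both libraries, at 117889757 to 117889961 in library 1 and 117889813 to 117890001 in library 2, had scores of 27 and 10, at percentiles 39.6 and 21.9. Library 1 alone had a peak at 117879194 to 117879398, whose score of 43 was at percentile 89.2. The nearest library 2 peak was 10.6 kb from it. Library 2 alone had 4 peaks, with scores of 16 at 117762776 to 117762964, 10 at 117793996 to 117794184, 9 at 117837822 to 117838010, and 13 at 117863627 to 117863815. The peak scored 16 was at percentile 84.6 and lay 78.5 kb from any library 1 peak. As in the Socs2 window, some peaks ranked high in 1 library had no peak in the other. Over the whole lists only 53.9% of library 1 peaks and 40.9% of library 2 peaks were found in both. The share among high-ranked peaks alone was not computed.

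Neighbours of Socs3 in the GRCm38.p6 annotation were Birc5, Tmem235 and Tha1 on one side and Pgs1, Dnah17 and Cyth1 on the other. A library 2 peak with a score of 10 lay 4.54 kb beyond the upper edge of the window and is not counted. Below the window, a site in both libraries lay 50.2 kb from the edge.

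The Cish window held peaks of library 2 alone. Cish is widely used as a marker of STAT5 activity, and its promoter carried the pair of palindromes shown above. The peaks lay at 107156579 to 107156767, with a score of 10 (percentile 21.9), and at 107197266 to 107197454, with a score of 9 (percentile 5.4), 40.7 kb apart. Both scores were below the library 2 median of 11, and 17284 of the 19236 peaks scored above the second. Library 1 had no peak for 433 kb across this window: its nearest peaks were 189 kb below the lower edge and 44.7 kb above the upper edge, with scores of 27 and 39.

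A window without a library 1 peak was common, at 36.3% of autosomal windows of 200 kb, and 5.14% had none in library 1 with 2 or more in library 2. The 4 windows flanking Cish held 0 to 2 peaks in library 1 (3 in all) and 1 to 3 in library 2 (6 in all), with 1 site in both libraries. The autosomal mean per window was 1.17 peaks in library 1 and 1.57 in library 2. The neighbours of Cish were Manf, Dock3 and Mapkapk3 on one side and Hemk1, 6430571L13Rik and Cacna2d2 on the other. With no read totals, a peak missing from the library 1 list does not show that the site was unbound there. The library 1 file also bears a suffix in its name that no source explains, and whether regions were taken out of that list alone is not known.

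The Socs1 window was empty in both libraries. SOCS1 restrains signalling by interferon gamma and by IL-2. The distance between the peaks on either side was 313 kb in both lists. Both of those flanking sites were found in both libraries. The lower, at 10630558 to 10630762 in library 1, lay 49.3 kb outside the window with scores of 23 in library 1 and 12 in library 2, and the upper, at 10943834 to 10944038, lay 53.9 kb outside with scores of 39 and 10. Empty windows were frequent, at 22.2% of autosomal windows of 210 kb and 23.3% of those of 200 kb. The 4 windows around Socs1 held 0 to 4 peaks in library 1 and 0 to 5 in library 2, and the window from 11100000 to 11310000 was empty too. The neighbours of Socs1 were Ciita, Dexi and Clec16a on one side and Tnp2, Prm3 and Prm2 on the other.

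**Figure D2:**
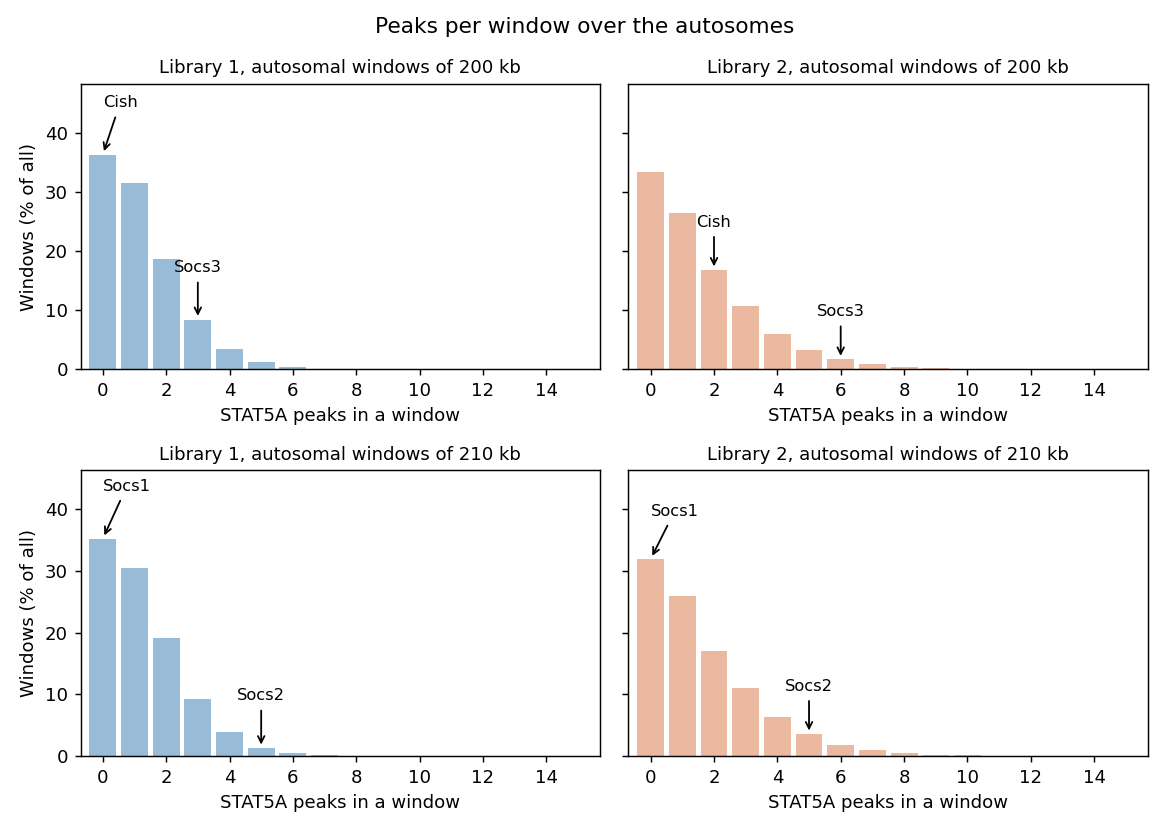
Number of STAT5A peaks per window (x axis) against the percentage of non-overlapping autosomal windows with that number (bars, y axis), for library 1 (left) and library 2 (right) and for windows of 200 kb (top) and 210 kb (bottom). Arrows mark each gene's own window. Socs2 with 5 peaks in each library and Socs3 with 6 in library 2 stand in the upper tail, and Socs1 stands at 0 in both. The library 2 count of Socs2 includes a peak only 0.25 kb inside the window edge.

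Peaks of the 4 loci were found in both libraries about as often as peaks elsewhere. Of the 8 library 1 peaks, 5 overlapped a library 2 peak by at least 1 bp, which is 62.5% (95% Wilson interval 30.6 to 86.3%), beside 53.9% of the whole list. Of the 13 library 2 peaks, 5 overlapped a library 1 peak, which is 38.5% (17.7 to 64.5%), beside 40.9% of the whole list. Both background shares lay inside the intervals, which are wide and cover counting error only. By locus, the share was 3 of 5 in each library at Socs2, 2 of 3 and 2 of 6 at Socs3, and 0 of 2 in library 2 at Cish.

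The paired peaks of the 5 sites lay close together, which pairing by overlap partly fixes in advance. Over all pairs of the lists the distance between centres was at most 195 bp. The centres of the pair were 19, 9 and 2 bp apart at the 3 Socs2 sites and 17 and 48 bp apart at the 2 Socs3 sites. Their median of 17 bp stood beside 27 bp over the 7877 pairs of the whole lists. The overlap was 149 to 189 bp, and at the third Socs2 site the library 2 peak, 189 bp wide, lay wholly inside the library 1 peak of 205 bp. Sites within the windows of Socs2 and Socs3 followed each other at 3.43 to 49.9 kb, with medians of 24.0 kb and 19.0 kb. The autosomal median was 49.5 kb, which is not limited by a window as these distances are.

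Scores of the members ran from percentile 14.4 to 96.2 in library 1 and from 0.3 to 84.6 in library 2. Their median percentiles were 39.6 and 21.9. Many scores were tied, with 22% of library 1 peaks at 27 and 23.5% of library 2 peaks at 10, so these percentiles are coarse. A score equal to the list median was at percentile 39.6 in library 1 and 42.4 in library 2. Member scores did not reach the top of the lists, whose highest scores were 179 in library 1 and 267 in library 2. In library 1 the 8 scores ran from 23 to 51 with a median of 27, equal to the list median of 27. In library 2 the 13 scores ran from 8 to 16 with a median of 10, against a list median of 11. Scores above the list median were found for 3 of 8 members in library 1 and 6 of 13 in library 2, beside 49.4% and 48.8% of the whole lists. The 5 sites in both libraries had library 1 scores of 23 to 51 with a median of 27, and the 3 library 1 peaks found there alone had 23 to 43 with a median of 39. In library 2 the medians were 12 for the sites in both (10 to 16) and 10 for the 8 others (8 to 16). These ranges overlapped in each library, and the medians differed in opposite directions. The peaks are few, and whether score separates the sites in both libraries from the others was not tested. The levels of the 2 libraries cannot be compared with each other.

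**Figure D3:**
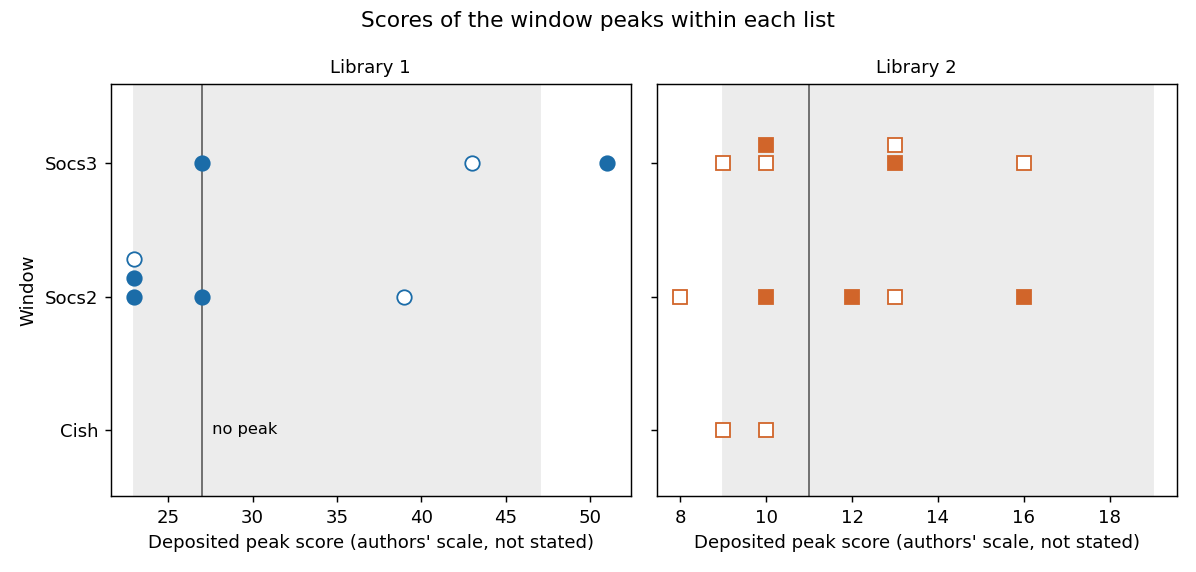
Deposited score of each window peak (x axis, in the authors' own unstated scale, drawn on a separate axis for each library) by locus (y axis), for library 1 (left) and library 2 (right). Filled symbols were found in both libraries and open symbols in 1, peaks with equal scores are stacked, the grey band spans percentiles 5 to 95 of the list and the line is its median; 1 peak, the Socs3 site with a score of 51, lies above the band and 1, the Socs2 peak with a score of 8, below it, and Socs1 has no peak to show.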

How the data were processed

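Sequencing of 2 STAT5A immunoprecipitations gave 1 peak list each. The authors deposited a score for each peak, a whole number. Its scale is not given in the sources used here, nor are the threshold, the control and any filter behind the lists. Per the submitters' processing notes, HOMER and mm9 were used, with no role or version named. Peaks were called per library, as the separate deposited lists show. Starts were moved by 1 so that positions count from 1.

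Members and gene lists were chosen with earlier results of these data known. Every peak with its centre in a window is named. Neighbours are the 3 nearest protein-coding genes on each side. Peaks of both lists overlapping by at least 1 bp were 1 site. Background windows tiled the 19 autosomes from the first to the last peak of either list. Shares carry Wilson intervals. No test between groups was made, since the libraries form 1 group. Distance to genes and sequence under peaks were not analysed, for want of an mm9 reference. Python 3.11.15, numpy 2.4.6, pandas 2.3.3, scipy 1.17.1 and matplotlib 3.10.9 were used, and overlap counting was tested on simulated data. Alternatives covered the overlap rule, score, list length, window width and each library alone.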

Additional observations from a re-analysis of the deposited data

How the results depend on the processing

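The 3 other overlap rules left 16 sites and 5 in both libraries. When peaks had to score above their own list's median, there were 3 peaks in library 1 and 6 in library 2. They made 8 sites, 1 of them in both libraries. The shares found in both were 33.3% in library 1, from 62.5%, and 16.7% in library 2, from 38.5%. This counts only partners above the median, and each share rests on 1 site. The share over the whole lists under the same filter was not computed, so the fall cannot be read as a trait of these loci. The Cish window then held 0 sites, and the Socs2 window 4, with 0 in both libraries. In the middle 100 kb of each window there were 5 and 7 peaks at 10 sites, 2 of them in both libraries. The shares were 40.0% in library 1 and 28.6% in library 2. The Socs2 window then held 3 sites and the Socs3 window 5, each with 1 in both libraries. Windows widened by 100 kb on each side held 17 and 30 peaks at 37 sites, 10 of them in both libraries. The Socs1 window then held 5 sites, and the shares were 58.8% in library 1 and 33.3% in library 2. Lists cut to about equal length (library 2 scores of 10 or more) left 13 sites, 5 of them in both libraries, and 1 site at Cish. The shares were then 62.5% in library 1 and 50% in library 2. Without 1 of the libraries the number of sites was 8 to 13. Of the 3 member promoters, 2 held TTCNNNGAA, 1 TTCCNGGAA and 0 the form with TTC and GAA 4 bases apart. No paired analysis was possible because no groups were compared. Without read totals or input peaks, low-scored sites cannot be told from background.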
